A study of Homo sapiens with 54 samples.

Results

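The 10 genes SRF, MYADM, VCL, TPM1, ACTA2, TAGLN, CNN1, MYL9, ACTB and ACTG1, of the serum response factor and actin cytoskeleton pathway, were followed through all conditions. They were chosen by name, and these 10 of 60676 annotated genes were present in each of the 53 libraries analysed. The libraries were RNA-seq of hMSN-like cells, that is, neurons resembling the medium spiny neurons of the striatum, all differentiated from the single human embryonic stem cell line H9 (WA09). In the 1 mM and 1 µM dopamine experiments, a single dose was given (Acute) or 1 h doses were repeated over 5 days (Chronic), RNA was taken 1 h or 24 h later, and the controls of each concentration received PBS. In the time course, 1 mM dopamine was given daily for 2, 3, 4 or 5 days, RNA was taken 1 h after the last dose, and ascorbic acid (AA) was the control. In the agonist experiment, SKF82958, an agonist of D1-like dopamine receptors, and quinpirole, an agonist of D2-like receptors, were each given at 50 µM and compared with Water. Each of the 18 conditions held 3 libraries, except 5 Day with 2. Acute doses were given on an earlier day of culture than the last Chronic dose, so regimen and culture age cannot be told apart. The same PBS libraries served both regimens of a concentration, and the labels do not give their day of culture. Comparisons with PBS can therefore also hold a difference in culture age. Dopamine was dissolved in ascorbic acid while the controls of the 2 dopamine concentrations are labelled PBS, so the solvent cannot be told apart from dopamine there. The labels name replicates without saying how separate the cultures were, and the p-values measure only the spread between these libraries.

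SRF is a transcription factor that binds CArG boxes, short sites made of CC, a run of A or T, and GG. It works with 2 kinds of partner. The ternary complex factors (ELK1, ELK3 and ELK4) bring it to immediate early genes such as FOS and EGR1 after signaling through MAP kinases, and the MRTF coactivators, which are held back by free G-actin, bring it to genes of actin, myosin and adhesion when actin polymerizes. SRF and several actin genes are themselves SRF targets, and in neurons the pathway is known for roles in activity-dependent transcription and in the growth of neurites and spines.

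The promoters that hold a CArG box are shown because CArG boxes are the kind of site that SRF is known to bind. Binding was not measured here. A window of 300 bases, from 250 before to 50 after the annotated start in RefSeq (GRCh38.p14), was available for 7 of the 10 genes, as 11 windows in all, and not for ACTB, TAGLN and MYL9. A box was searched on both strands as CC, 6 bases that are each A or T, and GG, which reads the same from either strand. Of the 11 windows, 3 held at least 1 box, namely windows of SRF, ACTG1 and MYADM, compared with 454 of all 35116 windows (1.29%). The SRF window lies at chr6:43171019-43171318 on the plus strand and holds 2 boxes, beginning 30 and 10 bases before the start. The ACTG1 window lies at chr17:81512750-81513049 on the minus strand, with a box beginning 94 bases before the start, and the MYADM window at chr19:53869141-53869440 on the plus strand, with a box that begins past the start, at position -28 when bases before the start are counted as positive. The boxes are in capitals, and each sequence is written 5′ to 3′ on the gene's own strand.
SRF: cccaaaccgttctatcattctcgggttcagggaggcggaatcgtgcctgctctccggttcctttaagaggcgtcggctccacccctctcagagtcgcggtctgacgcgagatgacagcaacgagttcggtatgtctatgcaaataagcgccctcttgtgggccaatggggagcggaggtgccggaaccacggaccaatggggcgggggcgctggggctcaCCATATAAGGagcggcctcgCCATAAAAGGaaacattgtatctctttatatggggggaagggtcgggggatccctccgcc
ACTG1: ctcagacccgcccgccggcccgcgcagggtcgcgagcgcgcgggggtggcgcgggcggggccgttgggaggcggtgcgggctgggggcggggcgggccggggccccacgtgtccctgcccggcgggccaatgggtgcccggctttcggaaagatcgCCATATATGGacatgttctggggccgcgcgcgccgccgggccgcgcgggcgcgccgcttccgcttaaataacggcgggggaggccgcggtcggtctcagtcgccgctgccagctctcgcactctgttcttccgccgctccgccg
MYADM: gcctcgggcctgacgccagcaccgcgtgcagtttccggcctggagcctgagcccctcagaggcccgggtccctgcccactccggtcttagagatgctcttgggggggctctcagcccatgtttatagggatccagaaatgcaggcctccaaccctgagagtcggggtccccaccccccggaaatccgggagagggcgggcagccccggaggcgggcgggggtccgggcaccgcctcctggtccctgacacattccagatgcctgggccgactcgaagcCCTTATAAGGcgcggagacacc
The windows of VCL, ACTA2, TPM1 and CNN1, the second window of SRF and the other windows of MYADM did not hold these letters, which says nothing of sites outside the windows or of sites with 1 changed base.

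In the annotation of the deposited tables (hg38), SRF (ENSG00000112658) lies at chr6:43171269-43181506 on the plus strand, MYADM (ENSG00000179820) at chr19:53864763-53876435 (plus), VCL (ENSG00000035403) at chr10:73995193-74121363 (plus) and TPM1 (ENSG00000140416) at chr15:63042632-63071915 (plus). The contractile genes CNN1 (ENSG00000130176) and MYL9 (ENSG00000101335) lie at chr19:11538767-11550323 and chr20:36541497-36551447, both plus. The cytoplasmic actins ACTB (ENSG00000075624) and ACTG1 (ENSG00000184009) lie at chr7:5527148-5563784 and chr17:81509971-81523847, both minus. ACTA2 is ENSG00000107796 and TAGLN is ENSG00000149591, and both are placed where their overlaps with other genes are described. Exon values cover all annotated exons of a gene.

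The authors' tables give reads on exons and, as a level per exon length, TPM, the transcript abundance scaled by exon length and library total. In TPM, the 10 genes spanned a wide range in untreated cells. In the 1 mM PBS libraries ACTG1, a cytoplasmic actin, was highest at 5286 TPM ± 209 (SD, n = 3), followed by ACTB, the other cytoplasmic actin, at 3028 ± 207. SRF itself stood at 46.1 TPM ± 3.33, TPM1 at 38.5 ± 2.89, VCL at 29.4 ± 1.53, MYADM at 25.8 ± 1.13 and ACTA2 at 21.3 ± 2.74. The contractile genes TAGLN (9.09 TPM ± 2.12), MYL9 (5.18 ± 1.87) and CNN1 (1.03 ± 0.614) were lowest, CNN1 with only 4 to 18 exon reads per library. Neighbours in this order did not overlap between libraries. The order held less well across experiments, since ACTA2 stood at 38.0 TPM ± 8.43 in AA and 25.5 ± 4.00 in Water but at only 5.19 ± 0.707 in the 1 µM PBS libraries, and levels set across experiments were not tested.

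Exon reads per library ranged from 13707122 to 21514125 in the 1 mM experiment, from 5755919 to 27702963 in the 1 µM experiment and from 8449292 to 14303800 in the time course. In the agonist experiment, replicate 1 of Quinpirole had only 137051 exon reads, with 96.7% of its gene reads in introns, and SRF, ACTA2 and MYL9 had 0 reads there, where 3 reads would have been 22.8, 32.5 and 34.4 TPM. The other 8 agonist libraries held 9013284 to 12889245 exon reads. Measured by its mean correlation with the other libraries of its experiment over all genes, 1 mM Acute 24 h replicate 1 also stood apart (r = 0.878, the other 14 between 0.963 and 0.972), as did the replicates 2 of PBS, Acute 1 h and Chronic 1 h at 1 µM (0.905, 0.878 and 0.927, the other 12 between 0.939 and 0.956). Test results that rest on these libraries are given with and without them. The labelled cell type was checked against marker genes. Neuron markers (MAP2, TUBB3, RBFOX3, SNAP25, STMN2, SYT1) summed to 3137 to 3571 TPM in 1 mM PBS and striatal markers (PPP1R1B, BCL11B, FOXP1, ARPP21, GAD1, GAD2) to 113 to 126.9 TPM. Every gene of both lists reached 1 TPM in at least 1 library of each condition. The cultures were mixed, with progenitor and glial markers at 2657 to 3127 TPM. Of the mural and smooth muscle markers, the muscle genes DES and MYH11 were under 1 TPM in every library of all conditions other than Quinpirole. There 1 of the 6 genes was under 1 TPM in every library.

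**Figure D1:**
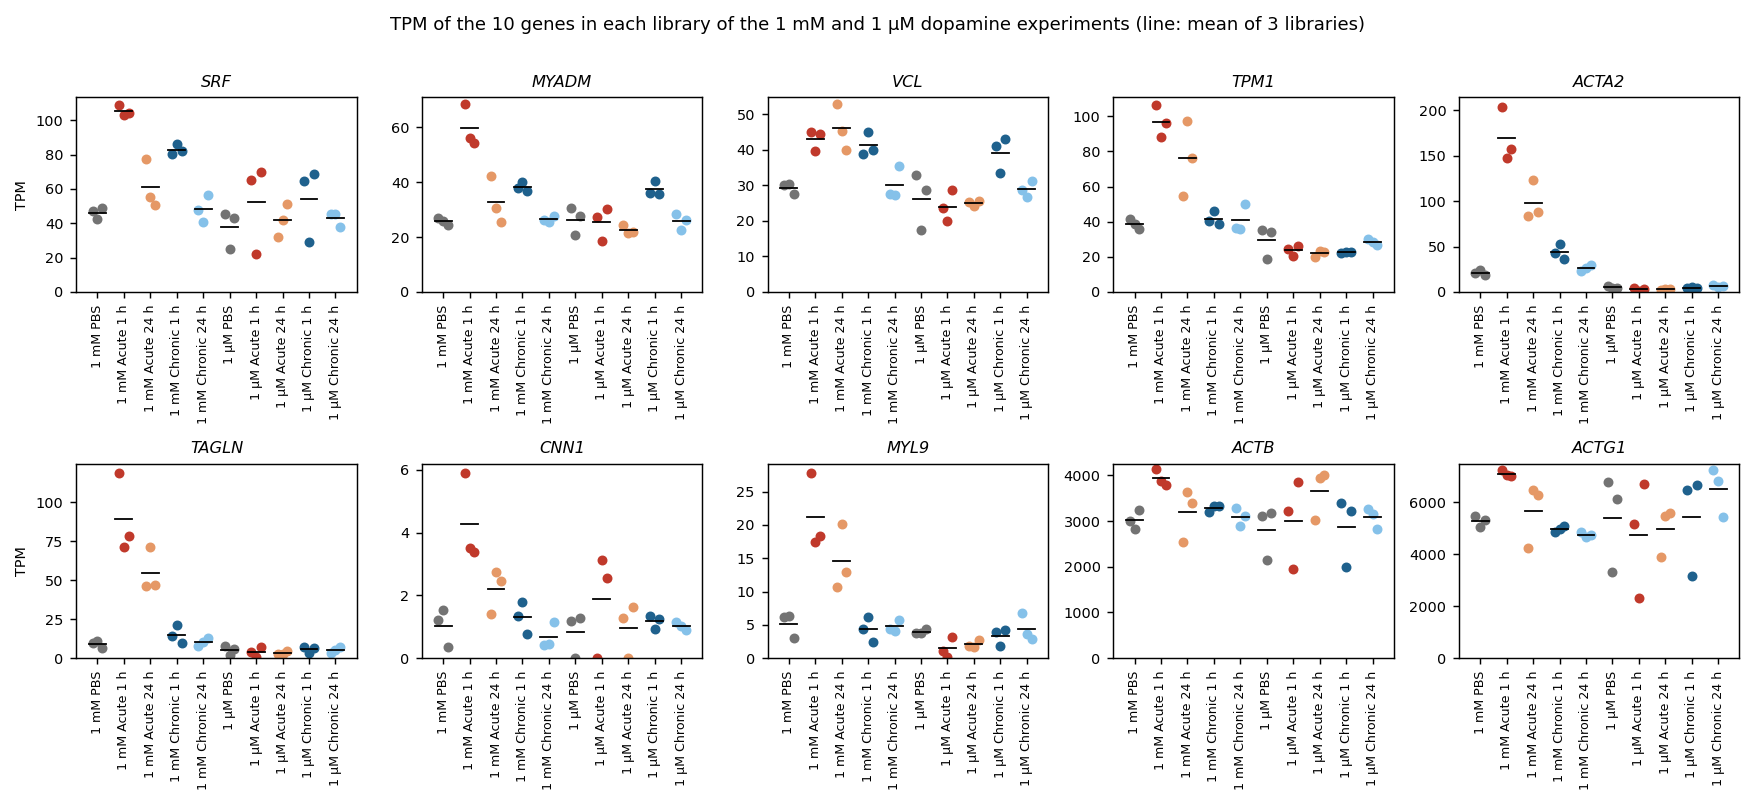
TPM (linear axes from 0) of the 10 genes in each library of the 1 mM and 1 µM dopamine experiments, 1 point per library and a line at the mean of 3. At 1 mM Acute 1 h all 10 genes lie above their PBS libraries (SRF 103 to 109 against 42.4 to 48.9 TPM), and at 1 µM ACTA2 stays under 8 TPM in every library.

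At 1 h after a single dose of 1 mM dopamine, the whole group was higher than in PBS. Of the 10 genes, 9 rose by edgeR's quasi-likelihood test on exon reads (adjusted p-value under 0.05, Benjamini-Hochberg over all genes tested), against 8.04% of the 17804 genes tested that rose. The TPM of the Acute 1 h libraries lay above that of PBS without overlap for all 10. The share of all genes that separated in this way was not counted. The median log2(fold change) was 1.34 over the 10 genes and 0.01 over all genes tested. The contractile genes moved most and the cytoplasmic actins least.

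SRF had 46.9, 42.4 and 48.9 TPM in the PBS libraries and 109, 103 and 104 TPM at Acute 1 h. All treated libraries lay above the highest control and close to each other. The log2(fold change) was 1.26 (SE 0.12, adjusted p = 0.00011), or 2.39-fold. MYADM, a membrane protein linked to the organization of the cell cortex, had 26.8, 25.9 and 24.5 TPM in PBS and 68.4, 56.0 and 54.4 TPM at Acute 1 h. Its log2(fold change) of 1.27 (SE 0.13, adjusted p = 0.00011) was close in size to that of SRF. VCL encodes vinculin, which couples adhesions to actin filaments, and went from 30.1, 30.4 and 27.6 TPM to 45.1, 39.7 and 44.5 TPM, a smaller rise of 0.62 on the log2 scale (SE 0.11, adjusted p = 0.0028). TPM1 encodes a tropomyosin that lines actin filaments. It had 41.3, 38.6 and 35.5 TPM in PBS and 106, 87.9 and 96.3 TPM at Acute 1 h, and thus rose 2.63-fold (log2 1.40, SE 0.21, adjusted p = 0.0011).

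ACTA2, the actin of smooth muscle, had 21.2, 24.1 and 18.6 TPM in PBS and 204, 147 and 157 TPM at Acute 1 h. All treated libraries lay far above the highest control, and the rise was 8.31-fold (log2 3.05, SE 0.21, adjusted p = 6.8e-06). TAGLN encodes transgelin, an actin-crosslinking protein of smooth muscle. Its level went from 9.85, 10.7 and 6.70 TPM to 119, 71.1 and 78.6 TPM, the largest change of the 10 genes at 10.3-fold (log2 3.37, SE 0.33, adjusted p = 0.00011). CNN1 (calponin, which binds actin and slows myosin) and MYL9 (a regulatory light chain of myosin II) were low throughout. MYL9 rose from 6.19, 6.32 and 3.02 TPM to 27.8, 17.4 and 18.4 TPM (log2 2.10, SE 0.37, adjusted p = 0.0031). CNN1 rose from 1.21, 1.54 and 0.352 TPM to 5.90, 3.51 and 3.38 TPM, which is 33 to 66 exon reads per library against 4 to 18 (log2 2.10, SE 0.50, adjusted p = 0.013).

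Among the cytoplasmic actins, ACTG1 had 5479, 5065 and 5316 TPM in PBS and 7242, 7062 and 6996 TPM at Acute 1 h (log2 0.49, SE 0.16, adjusted p = 0.048). ACTB had 3009, 2830.4 and 3244 TPM in PBS and 4145, 3879 and 3797 TPM at Acute 1 h. The ACTB groups did not overlap, yet its log2 difference of 0.44 (SE 0.15) missed the threshold (adjusted p = 0.053). The spread in this test is shared by the 5 conditions of the experiment. Without replicate 1 of Acute 24 h, which is in neither group, all 10 genes rose, ACTB by 0.43 (SE 0.06, adjusted p = 0.00013), against 19.9% of all genes, and leaving out 1 library at a time moved the adjusted p up to 0.194 for ACTB, 0.166 for ACTG1 and 0.056 for CNN1 while the other 7 genes stayed under 0.05.

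Reads shared with other genes can make a level less certain, and the 2 cytoplasmic actins and the muscle actins are close in sequence. Over the libraries, 99.98% of the ACTB exon reads and 99.99% of the ACTG1 exon reads were counted as uniquely mapped, but 88.5% of the ACTA2 reads and 74.4% of the TAGLN reads. Both also overlap other genes, ACTA2 (chr10:88935074-88991339, minus strand) with FAS, STAMBPL1, ACTA2-AS1 and AL157394.3, and TAGLN (chr11:117199370-117207464, plus strand) with PCSK7 and AP000892.4 in the annotation of the files' build (hg38), and the strand used in counting is not given in the sources used here. With uniquely mapped gene reads the log2(fold change) at 1 mM Acute 1 h was 3.35 for ACTA2 and 3.61 for TAGLN, compared with 3.05 and 3.37 for all exon reads. Gene reads also hold intron reads and were normalized in their own fit, so the shared reads are not the only difference. In unique exon reads, which were not tested, ACTA2 had 199, 252 and 177 reads in PBS and 2055, 1302 and 1458 at Acute 1 h. SRF, CNN1 and MYL9 were counted from unique reads only.

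In bulk libraries, more cells of a type and more RNA per cell cannot be told apart, so markers of other cell types are given beside these changes. Of 5 tested mural and smooth muscle markers, 1 rose at 1 mM Acute 1 h, namely RGS5, a regulator of G-protein signaling typical of pericytes, from 4.29 to 6.27 TPM in PBS to 16.2 to 20.4 TPM (log2 1.83, adjusted p = 0.00078). The 6 mural and smooth muscle markers together summed to 96.9 to 110.3 TPM in PBS and 107 to 129 TPM at Acute 1 h, ranges that overlap, and DES was at 0 in 2 of the 3 treated libraries and at most 0.206 TPM in the third. None of the 6 fibroblast markers rose and 1 fell (DCN, log2 -1.02), and 0 of 8 progenitor and glial markers passed. Among 6 neuron markers 2 fell, SYT1 (log2 -0.43) and RBFOX3 (log2 -0.40), while of the 6 striatal markers GAD2 rose (log2 0.66) and ARPP21 fell (log2 -0.64), with a summed level of 90.9 to 95.3 TPM against 113 to 126.9 TPM in PBS. The share of gene reads in introns also differed, at 12.3 to 13.2% in the Acute 1 h libraries and 19.5 to 21.8% in PBS. Their part in the result was not tested.

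Intron reads, which come mostly from transcripts not yet spliced, were counted after the exon result had been seen. By intron reads, 9 of the 10 genes rose at 1 mM Acute 1 h, against 23.1% of all genes. Intron reads were normalized among themselves. Introns held a smaller share of gene reads at Acute 1 h than in PBS, so exon and intron values are not on the same scale. SRF rose by 2.20 on the log2 scale (SE 0.27), with 63 to 80 intron reads per library in PBS and 118 to 136 at Acute 1 h. MYL9 (3.93, on 1 to 10 intron reads per PBS library), ACTG1 (1.82) and VCL (1.69) also had larger values than in exon reads. Before normalization, VCL had 538 to 680 intron reads in PBS and 714 to 816 at Acute 1 h, and CNN1 18 to 31 and 8 to 15. ACTB, counted among the 9, had fewer at Acute 1 h (45 to 69) than in PBS (71 to 111), so its rise rests on the normalization. The values for TAGLN (3.15) and ACTA2 (2.61) were under those of exon reads, and the differences between exon and intron values were not tested. CNN1 was the exception with an intron value of 0.17 (SE 0.36, adjusted p = 0.71). After the Chronic 1 h dose, SRF (1.37) and VCL (1.04) rose in intron reads, against 1.27% of all genes.

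**Figure D2:**
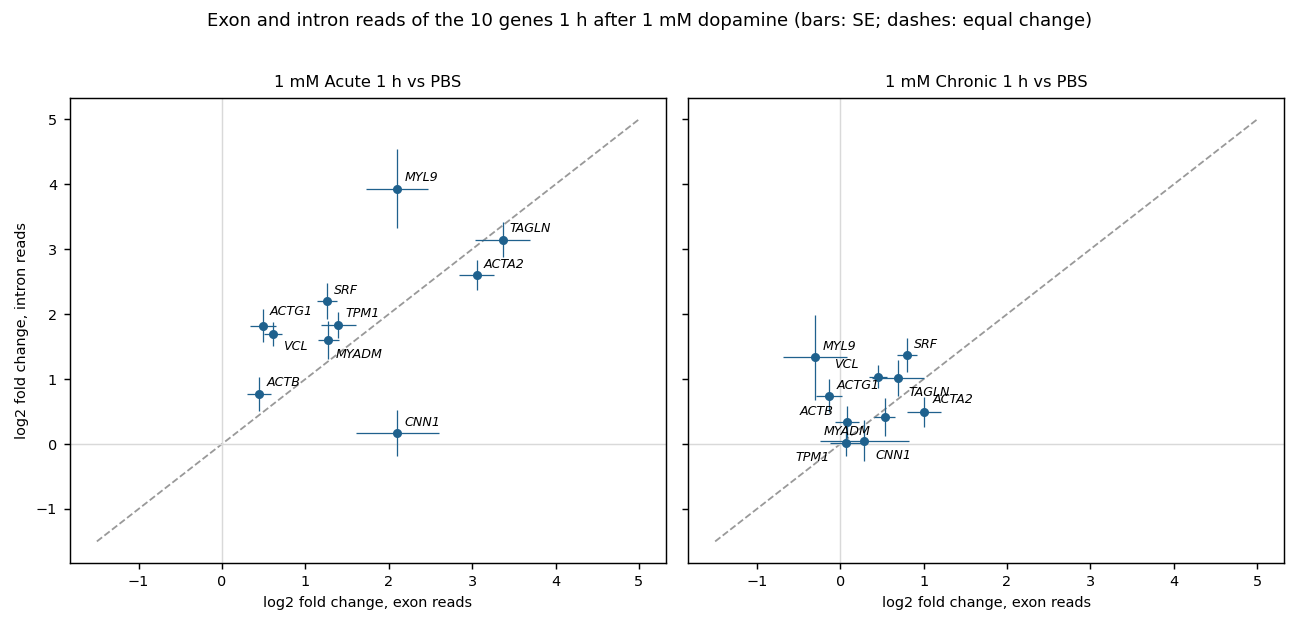
The log2(fold change) over PBS in exon reads (x axis) and intron reads (y axis) for the 10 genes at 1 mM, Acute 1 h on the left and Chronic 1 h on the right, with SE bars and a dashed line of equal change. SRF lies above the line in both panels (1.26 and 2.20 on the left), and CNN1 lies below it on the left with 0.17 in intron reads. Exon and intron reads were normalized separately, so the axes are not on the same scale.

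At 24 h after the single 1 mM dose, most contractile genes were still higher than in PBS, and SRF did not pass by exon reads. Of the 10 genes 5 were higher than PBS, against 8.38% of all genes. ACTA2 had 83.1, 123 and 88.3 TPM at Acute 24 h (log2 2.10, SE 0.21, adjusted p = 0.00065) and TAGLN 46.0, 71.7 and 47.1 TPM (log2 2.50, SE 0.32, adjusted p = 0.0012). All 3 libraries lay above PBS in both genes, and the ACTA2 libraries lay below those of Acute 1 h, while 1 TAGLN library (71.7 TPM) was within the range of Acute 1 h. TPM1 (log2 0.89, adjusted p = 0.017), MYL9 (1.40, adjusted p = 0.026) and VCL (0.52, adjusted p = 0.011) were also higher. VCL, at 53.0, 45.3 and 39.9 TPM, overlapped its Acute 1 h range of 39.7 to 45.1 TPM. SRF had 77.7, 55.1 and 50.6 TPM (log2 0.27, SE 0.12, adjusted p = 0.13) and MYADM 42.2, 30.4 and 25.5 TPM (log2 0.21, adjusted p = 0.25), both with replicate 1 highest. The SRF libraries did not overlap PBS, and SRF passed with total gene reads (log2 0.54, adjusted p = 0.011) and with intron reads (log2 0.87, adjusted p = 0.024). CNN1 (log2 1.02, adjusted p = 0.17), ACTB (-0.02) and ACTG1 (0.00) did not pass either.

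Replicate 1 of Acute 24 h differed from the other libraries over the whole transcriptome. In it TUBB3, a neuronal tubulin, was at 140 TPM against at least 739.5 in the other 2 libraries, and EGR1, an immediate early gene, was at 695.5 TPM against at most 27.8. Without it, 6 genes rose, against 22.3% of all genes in either direction, ACTA2 by 2.26 and TAGLN by 2.66 on the log2 scale, with ACTG1 (0.22, adjusted p = 0.0099) added, and SRF stood at 0.15 (adjusted p = 0.31). With only the Acute 24 h and PBS libraries in the fit, no gene passed of the 10 or of all genes. Of the marker lists, 1 of 5 mural and smooth muscle markers rose (RGS5, log2 1.42, 12.0 to 18.4 TPM) with summed levels of 113.7 to 133 TPM, and 3 of 6 neuron markers fell.

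After repeated doses the response was smaller and narrower. At 1 mM Chronic 1 h, 4 of the 10 genes were higher than PBS, against 1.27% of all genes, with a median log2(fold change) of 0.37 over the 10 genes and 0.00 over all genes. SRF had 80.4, 86.0 and 81.9 TPM, above all PBS libraries (log2 0.80, SE 0.12, adjusted p = 0.0051). ACTA2 had 42.5, 52.6 and 36.7 TPM (log2 1.00, SE 0.20, adjusted p = 0.022), MYADM 37.9, 40.2 and 36.9 TPM (log2 0.53, SE 0.13, adjusted p = 0.046) and VCL 38.9, 45.1 and 39.9 TPM (log2 0.45, SE 0.11, adjusted p = 0.049). None of these 4 groups overlapped PBS. TAGLN, at 14.3, 21.2 and 9.94 TPM, overlapped its controls (log2 0.69, adjusted p = 0.29). TPM1 (log2 0.07), CNN1 (0.29), MYL9 (-0.30), ACTB (0.08) and ACTG1 (-0.13) did not pass. The calls were close to the threshold, since leaving out 1 library at a time gave between 1 and 4 genes, with only SRF under an adjusted p of 0.05 each time (highest 0.048). The count was 1 without any single PBS library or without replicate 1 or 2 of Chronic 1 h (0.319% to 1.16% of all genes in either direction), and 2 without replicate 3 of Chronic 1 h (0.49%). Without replicate 1 of Acute 24 h the 4 genes had adjusted p-values of 3.1e-05 (SRF), 0.001 (ACTA2), 0.0012 (MYADM) and 0.0043 (VCL), against 9.25% of all genes. Of the marker lists at Chronic 1 h, GFAP, an astrocyte filament, was the 1 of 8 progenitor and glial markers that rose (log2 1.61, adjusted p = 0.0054) and PPP1R1B, a phosphatase inhibitor of striatal neurons, the 1 of 6 striatal markers that fell (log2 -0.93, adjusted p = 0.041), while 0 neuron, mural or fibroblast markers passed. Their part in the result was not tested.

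By 24 h after the last of the repeated doses, 0 of the 10 genes differed from PBS, against 0.663% of all genes (118 by edgeR, 1921 at an unadjusted p under 0.05, 421 by DESeq2). SRF was at 47.7, 40.6 and 56.5 TPM (log2 0.04) and ACTA2 at 23.1, 25.8 and 29.2 TPM (log2 0.26). ACTG1, with 4838, 4677 and 4737 TPM against 5065 to 5479 in PBS (log2 -0.18), passed only when replicate 1 of Acute 24 h was left out (adjusted p = 0.03).

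Chronic and Acute libraries were then compared with each other, since comparisons with the shared PBS libraries do not test their difference. At 1 h, 8 of the 10 genes were lower after Chronic than after Acute dosing, against 5.91% of all genes. The groups did not overlap for 9, and the share of all genes without overlap was not counted. The largest differences were in the contractile genes, with a log2 difference, Chronic minus Acute, of -2.67 for TAGLN (SE 0.32, adjusted p = 0.00034), -2.40 for MYL9, -2.05 for ACTA2 (SE 0.20, adjusted p = 0.00016) and -1.81 for CNN1. It was -1.32 for TPM1, -0.74 for MYADM and -0.62 for ACTG1. SRF was lower with -0.46 (SE 0.12, adjusted p = 0.028) and remained above PBS. VCL, at 38.9 to 45.1 TPM after Chronic and 39.7 to 45.1 TPM after Acute dosing, was the gene whose groups overlapped (log2 -0.17, SE 0.11, adjusted p = 0.34), and ACTB missed the threshold (log2 -0.37, adjusted p = 0.12). Leaving out 1 library at a time gave 5 genes without any single library of either group, against 4.49% to 6.67% of all genes in either direction. Without replicate 1 of Acute 24 h there were 9, against 34% of all genes in either direction. Beside this difference, the share of gene reads in introns was 20.6 to 20.9% at Chronic 1 h and 12.3 to 13.2% at Acute 1 h. RGS5 was the 1 of 5 mural and smooth muscle markers that was lower (log2 -1.97), and the summed level of that list was 85.6 to 100.3 TPM against 107 to 129 TPM, without overlap. Of the striatal markers ARPP21 was higher (log2 1.00) and GAD2 lower (log2 -0.65), and 1 of 8 progenitor and glial markers was higher. The part of these in the result was not tested.

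At 24 h, 5 genes were lower after Chronic than after Acute dosing, namely TAGLN (log2 -2.34), ACTA2 (-1.84), MYL9 (-1.55), TPM1 (-0.83) and VCL (-0.52), against 3.9% of all genes. Without replicate 1 of Acute 24 h there were 7, with CNN1 (-1.90) and ACTG1 (-0.40) added (15.2% of all genes in either direction). Without replicate 1 or replicate 2 of Chronic 24 h there were 2 (2.17% and 2.61%), and with only the 2 groups in the fit no gene passed of the 10 or of all genes. Of the marker lists, 3 of 6 neuron markers (SYT1 and RBFOX3 among them), 2 of 6 fibroblast markers (DCN among them, log2 1.13) and 2 of 8 progenitor and glial markers were higher after Chronic dosing, RGS5 was lower (log2 -1.61) as 1 of 5 mural and smooth muscle markers, and of the striatal markers ARPP21 was higher and GAD2 lower. The mural and smooth muscle list summed to 90.05 to 94.9 TPM after Chronic and 113.7 to 133 TPM after Acute dosing, and introns held 18.9 to 22.4% and 12.5 to 15.9% of gene reads. Their part in the result was not tested.

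**Figure D3:**
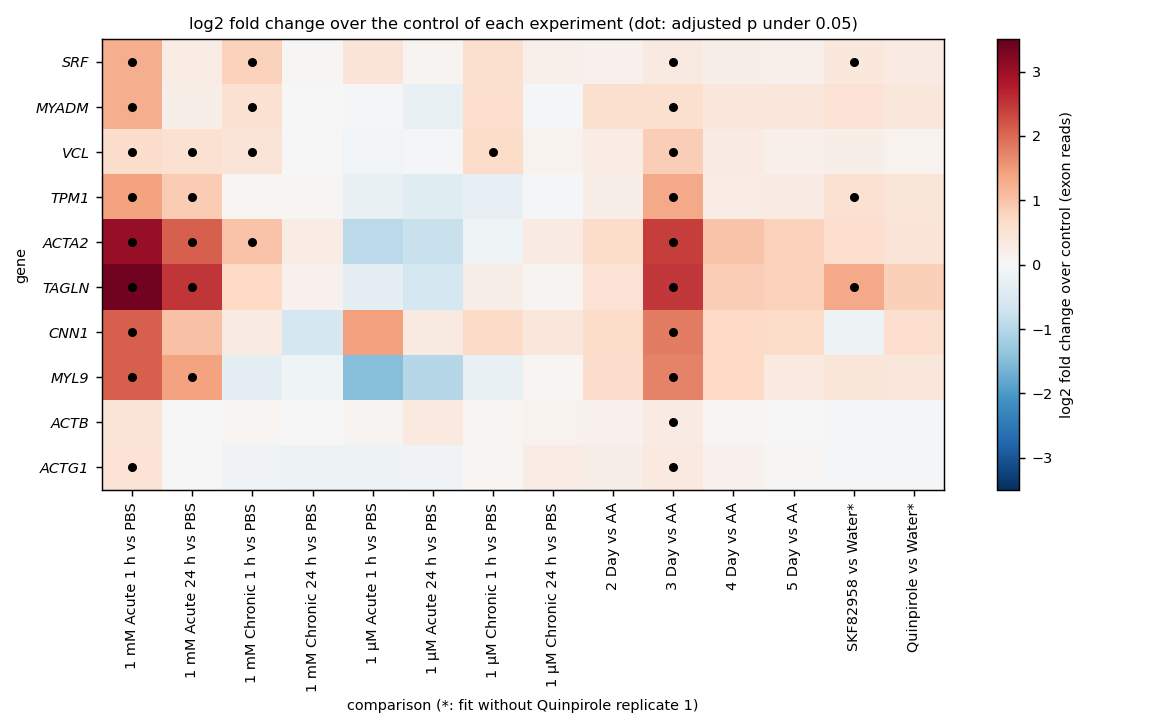
The log2(fold change) of exon reads over the control of each experiment, 1 row per gene and 1 column per comparison, with a dot where the adjusted p-value is under 0.05. TAGLN reaches 3.37 at 1 mM Acute 1 h and 2.48 at 3 Day, whereas at 1 µM the only dot is VCL at Chronic 1 h (0.65).

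After 1 µM dopamine few of the 10 genes passed. At Acute 1 h, 0 of the 10 genes passed, against 5.77% of all genes (954 by edgeR, 3351 at an unadjusted p under 0.05, 1770 by DESeq2). The median log2 difference of the 10 genes was -0.14. SRF had 45.4, 24.9 and 43.3 TPM in PBS and 65.0, 22.2 and 70.1 TPM at Acute 1 h, replicate 2 being the lowest of each group (log2 0.46, SE 0.28, adjusted p = 0.39). ACTA2 had 6.00, 4.70 and 4.87 TPM in PBS and 4.49, 0.676 and 3.36 TPM at Acute 1 h, with every treated library under its controls (log2 -0.95, SE 0.45, adjusted p = 0.25). These levels rest on 36 to 48 exon reads per library in PBS and 5 to 22 at Acute 1 h. TAGLN, at 3.98, 0.983 and 7.42 TPM, overlapped its controls at 7.95, 2.24 and 5.596 TPM, with replicate 2 below all of them (log2 -0.35, SE 0.50). MYL9 had a negative difference that did not pass (log2 -1.49, SE 0.64, adjusted p = 0.2), on 1 to 20 exon reads per treated library. CNN1 had 0 reads in 3 of the 1 µM libraries (PBS replicate 2, Acute 1 h replicate 1 and Acute 24 h replicate 2, where 3 reads would be 0.352, 0.673 and 0.337 TPM). With 0 to 9 exon reads per library in PBS and 0 to 22 at Acute 1 h, its values at 1 µM are uncertain.

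Some calls changed without the replicates 2 of PBS, Acute 1 h and Chronic 1 h at 1 µM. In that fit, an alternative chosen after the data had been seen, SRF rose at 1 µM Acute 1 h by 0.66 (SE 0.13, adjusted p = 0.004) and TPM1 fell by 0.40 (adjusted p = 0.015), against 11.3% of all genes in either direction. TPM1 then had 24.6 and 26.1 TPM against 35.0 and 34.3 TPM in PBS. ACTA2 (log2 -0.43, adjusted p = 0.50), TAGLN (-0.19) and MYADM (0.03) did not pass. In intron reads with all libraries, VCL rose (0.63) and TPM1 fell by 0.90 of the 8 genes with enough reads to test, against 12.8% of all genes.

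At 1 µM Acute 24 h, 0 of the 10 genes passed, against 3.31% of all genes (547 by edgeR, 2785 at an unadjusted p under 0.05, 1201 by DESeq2). At 1 µM Chronic 1 h, 1 gene passed, against 2.58% of all genes. This was VCL, with 32.9, 17.3 and 28.7 TPM in PBS and 41.2, 33.4 and 43.0 TPM after dopamine, all above the controls (log2 0.65, SE 0.13, adjusted p = 0.021). Leaving out any single library of the 2 groups other than replicate 1 of PBS left 0 of the 10 genes past the threshold, against 0.859% to 1.6% of all genes. MYADM had 36.1, 40.4 and 35.7 TPM against 20.6 to 30.7 TPM in PBS, again without overlap (log2 0.59, SE 0.19, adjusted p = 0.13). SRF had 64.9, 29.2 and 68.4 TPM (log2 0.55, SE 0.28, adjusted p = 0.39). Without the 3 libraries named above, SRF (0.66, adjusted p = 0.0064) and VCL (0.52, adjusted p = 0.027) were higher and TPM1 lower (-0.56, adjusted p = 0.0036), against 7.2% of all genes. Between Chronic 1 h and Acute 1 h SRF had a difference of 0.00 (SE 0.12) in that fit. At 1 µM Chronic 24 h, 0 of the 10 genes passed, as did 0% of all genes (0 by edgeR, 608 at an unadjusted p under 0.05, 1 by DESeq2).

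Between regimens at 1 µM, VCL was higher after Chronic than after Acute dosing at 1 h, by 0.74 (SE 0.14, adjusted p = 0.016), the 1 gene that passed, against 1.2% of all genes, and by 0.71 without the 3 libraries. It did not pass without replicate 1 of Acute 1 h or without replicate 1 or 3 of Chronic 1 h. At 24 h, 0 passed, against 4.48% of all genes (741 by edgeR, 3039 at an unadjusted p under 0.05, 1499 by DESeq2), although ACTA2 was at 7.69, 5.76 and 6.32 TPM after Chronic and 2.47, 3.32 and 3.63 TPM after Acute dosing without overlap (log2 1.08, SE 0.44, adjusted p = 0.2). Without the 3 libraries, none of which is in these groups, ACTA2 (1.08), ACTG1 (0.40) and TPM1 (0.39) were higher and ACTB lower (-0.23), against 22.7% of all genes.

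The dose itself was tested as the difference between the 1 mM and the 1 µM response, each over its own PBS libraries. Since the 2 doses were separate experiments, dose and experiment cannot be told apart. At Acute 1 h, 6 of the 10 genes responded more at 1 mM, against 1.09% of all genes. The difference was 4.04 for ACTA2 (SE 0.42, adjusted p = 4.1e-06), 3.73 for TAGLN, 3.58 for MYL9, 1.68 for TPM1, 1.34 for MYADM and 0.73 for VCL (adjusted p = 0.03). SRF was among the 4 that did not pass (0.81, SE 0.32, adjusted p = 0.21), together with ACTB (0.36), ACTG1 (0.69) and CNN1 (0.70). Without the 3 libraries of 1 µM the same 6 genes passed, against 1.53% of all genes, and SRF had 0.63 (SE 0.18, adjusted p = 0.061). At Chronic 1 h, 0 of the 10 genes differed between doses, against 0.087% of all genes (16 by edgeR, 1462 at an unadjusted p under 0.05, 133 by DESeq2).

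The other genes of the pathway were followed in lists of the same kind. The immediate early targets of SRF (EGR1, EGR2, EGR3, FOS, FOSB, JUNB, IER2, MCL1 and NR4A1) rose at 1 mM Acute 1 h in 9 of 9 cases, against 8.04% of all genes, with a median log2(fold change) of 3.98, led by FOSB (6.77), EGR2 (6.62), EGR3 (6.01) and EGR1 (5.01). At 1 mM Chronic 1 h 8 of 9 rose (1.27% of all genes), at 1 µM Acute 1 h 8 of 9 (median 3.53, with 5.77% of all genes called in either direction), and at 1 µM Chronic 1 h 8 of 9 (2.58%). Their response did not pass between doses in any of the 9 cases at Acute 1 h (median difference 0.59, and 0.08 without the 3 libraries), and whether the immediate early genes differ in this from the 6 genes above was not tested. The 22 other contractile and adhesion genes held 12 that rose and 0 that fell at 1 mM Acute 1 h (median 0.47, 8.04% of all genes higher), led by the skeletal muscle actin ACTA1 (3.27), the enteric smooth muscle actin ACTG2 (2.73), FHL2, a LIM-domain cofactor (1.60), and LMOD1, an actin nucleator of smooth muscle (1.31). At 1 mM Chronic 1 h 1 of the 22 rose (1.27% of all genes), and 7 were lower there than at Acute 1 h (5.91% of all genes). At 1 µM Acute 1 h 0 of 19 tested passed (5.77% of all genes), and 2 of 21 responded more at 1 mM (1.09% of all genes).

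Of 6 tested partners of SRF, 0 rose and 1 fell at 1 mM Acute 1 h, while 1414 of all 17804 genes tested fell. The 1 was SCAI, a suppressor of MRTF (log2 -0.57, adjusted p = 0.005), while MRTFA (-0.16, adjusted p = 0.48) and MRTFB (-0.05, adjusted p = 0.82) did not pass. For 1 mM Chronic 1 h against Acute 1 h 1 of the 6 was higher (956 of all 17804 genes), and at 3 Day 1 of 7 tested (4.77% of all genes). Also lower was 1 of 6 at 1 mM Acute 24 h (1263 of 17804 genes), at 1 µM Acute 1 h (417 of 16541) and at 1 µM Acute 24 h (316 of 16541).

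**Figure D4:**
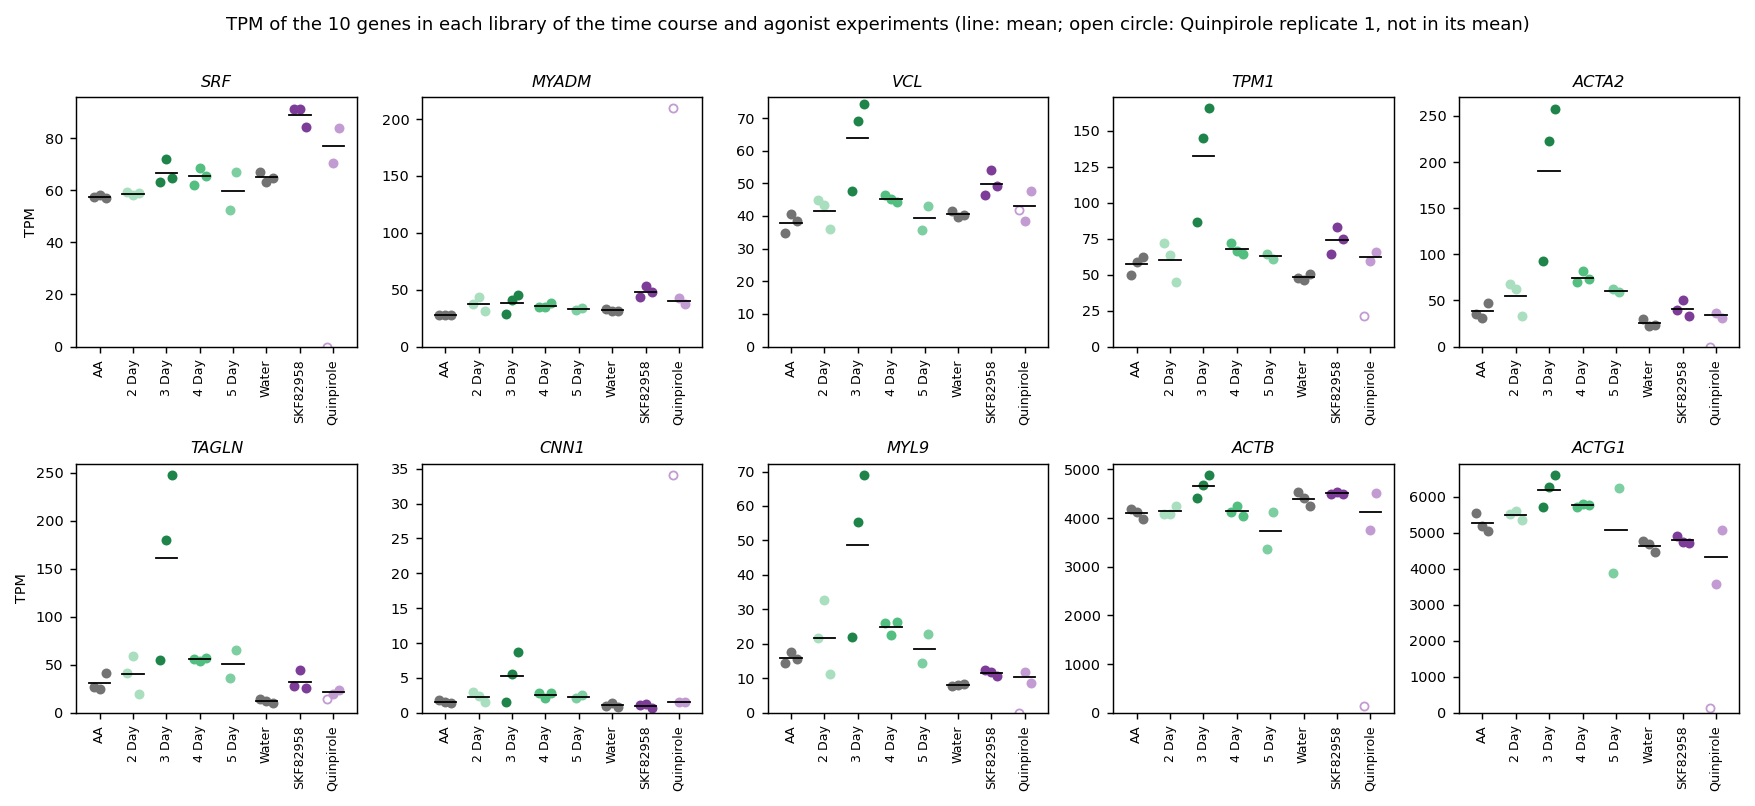
TPM (linear axes from 0) of the 10 genes in each library of the time course and agonist experiments, 1 point per library, a line at the mean, and an open circle for Quinpirole replicate 1, which is not in its mean. At 3 Day the replicates 2 and 3 lie far above replicate 1 (ACTA2 223 and 257 against 92.6 TPM), and SKF82958 lies above Water for SRF (84.3 to 91.1 against 63.3 to 66.9 TPM).

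In the time course, all 10 genes rose at 3 Day, against 4.77% of all genes, and 0 passed at the other days. At 3 Day, ACTA2 had 92.6, 223 and 257 TPM, compared with 35.1, 31.5 and 47.5 TPM in AA (log2 2.43, SE 0.33, adjusted p = 0.00048). TAGLN had 54.4, 180 and 247 TPM against 27.0, 24.5 and 41.1 TPM in AA (log2 2.48, SE 0.44, adjusted p = 0.0038). Replicate 1 was above AA in both genes but far under the other 2 libraries. SRF moved little, from 57.4, 58.1 and 57.0 TPM to 63.0, 72.0 and 64.9 TPM (log2 0.31, SE 0.08, adjusted p = 0.02), which is less than its rise at 1 mM Acute 1 h in the other experiment, and the difference was not tested. The remaining genes rose by 1.80 (CNN1), 1.72 (MYL9), 1.31 (TPM1), 0.85 (VCL), 0.57 (MYADM), 0.34 (ACTG1) and 0.28 (ACTB). Leaving out 1 library at a time moved the count. Without replicate 2 of 3 Day 4 genes passed (ACTA2, TAGLN, VCL and TPM1), against 2.34% of all genes in either direction. There were 5 without replicate 3 (3.33%), while all 10 passed without replicate 1 (10.2%). Without replicate 1, 2 or 3 of AA the count was 4, 5 and 6 (2.21%, 2.8% and 5.59% of all genes). Of the marker lists at 3 Day, 3 of 5 mural and smooth muscle markers rose (summed level 105.5 to 135 TPM, 89.1 to 95.9 TPM in AA), RGS5 among them (log2 0.82), as did 3 of 6 fibroblast markers (259 to 449 TPM, 171 to 227 TPM in AA), while of 8 progenitor and glial markers 3 rose and 3 fell. DES and MYH11 were at most 0.267 TPM in the 3 Day libraries. Their part in the result was not tested.

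At 2 Day 0 of the 10 genes passed, against 3.88% of all genes (651 by edgeR, 3396 at an unadjusted p under 0.05, 902 by DESeq2). SRF was at 59.3, 58.0 and 58.8 TPM (log2 0.16) and MYADM at 37.0, 43.6 and 31.2 TPM against 27.5 to 27.9 TPM in AA, the nearest to the threshold (log2 0.57, SE 0.16, adjusted p = 0.059). At 4 Day the 3 libraries were close to each other, with ACTA2 at 69.6, 81.5 and 72.9 TPM and TAGLN at 56.1, 54.2 and 57.1 TPM. The TPM of 9 of the 10 genes did not overlap AA there, although the share over all genes was not counted. Yet 0 of the 10 passed, against 4.38% of all genes (734 by edgeR, 3358 at an unadjusted p under 0.05, 1004 by DESeq2). The log2 values were 1.00 for ACTA2 (SE 0.33, adjusted p = 0.096), 0.87 for TAGLN (SE 0.43, adjusted p = 0.28) and 0.21 for SRF (SE 0.08, adjusted p = 0.12), and with only the 4 Day and AA libraries in the fit 6 genes passed (ACTA2, TAGLN, MYL9, MYADM, VCL and SRF), as did 2145 of all 15868 genes tested. At 5 Day, with 2 libraries, 0 passed, against 1.63% of all genes (274 by edgeR, 2609 at an unadjusted p under 0.05, 423 by DESeq2). SRF was at 52.4 and 67.0 TPM, on either side of AA (57.0 to 58.1 TPM). The TPM of 3 of the 10 genes, ACTA2 among them (59.3 and 62.0 TPM), did not overlap AA. Dose, days of dosing and sampling time were those of 1 mM Chronic 1 h, where SRF was higher than PBS. The controls and experiments differ, and the difference between these results was not tested. From 2 Day to 5 Day the 9 immediate early targets all rose each day, with medians between 1.88 and 2.20.

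The agonists were compared with Water in the same way. With all libraries in the fit, 0 of the 10 genes passed for SKF82958, against 0.0124% of all genes (2 by edgeR, 185 at an unadjusted p under 0.05, 6 by DESeq2), and 0 for Quinpirole, against 0% of all genes (0 by edgeR, 350 at an unadjusted p under 0.05, 107 by DESeq2). The SE of the SRF value for SKF82958 was 0.57 with replicate 1 of Quinpirole in the fit and 0.07 without it. Without it, 3 genes were higher after SKF82958, against 0.612% of all genes. SRF had 91.0, 91.1 and 84.3 TPM against 66.9, 63.3 and 64.7 TPM in Water (log2 0.37, SE 0.07, adjusted p = 0.014). TAGLN had 28.0, 44.1 and 25.5 TPM against 14.4, 12.1 and 10.4 TPM (log2 1.32, SE 0.18, adjusted p = 0.0012). TPM1 had 64.1, 83.0 and 74.8 TPM against 47.7, 46.5 and 50.3 TPM (log2 0.54, SE 0.09, adjusted p = 0.006). None of these groups overlapped. MYADM (log2 0.52, adjusted p = 0.067) and ACTA2 (0.59, adjusted p = 0.18) had values of similar size that did not pass. The mural and smooth muscle markers summed to 87.5 to 99.0 TPM after SKF82958 and 71.3 to 78.8 TPM in Water, and the fibroblast markers to 240.7 to 315 TPM and 198 to 207 TPM, both without overlap. Their part in the result was not tested.

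For Quinpirole without replicate 1, 0 of the 10 genes passed, against 0.184% of all genes (30 genes by edgeR). Its 2 remaining libraries had 70.4 and 83.8 TPM of SRF (log2 0.29, SE 0.07, adjusted p = 0.33), 59.6 and 65.5 TPM of TPM1 (log2 0.43, SE 0.10, adjusted p = 0.18) and 19.0 and 23.6 TPM of TAGLN (log2 0.82, SE 0.21, adjusted p = 0.28). These values lie above Water in both libraries, and whether the agonists differ from each other was not tested. The Water libraries already had 553.7 to 637 TPM of EGR1, compared with 13.9 to 19.2 TPM in 1 mM PBS, and its part in the agonist result was not tested.

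Across the 18 conditions the 10 genes fell into patterns that could be described by their correlation. Condition means of log2(TPM + 1) were centred within each experiment and Quinpirole replicate 1 was left out. The points share their libraries, normalization and controls, and each r is a description. ACTA2 and TAGLN followed each other most closely (r = 0.97, n = 18 conditions), then TAGLN and TPM1 (0.96) and ACTA2 and TPM1 (0.94). SRF was closest to MYADM (0.89) and less close to ACTA2 (0.65) and TAGLN (0.67). ACTB and VCL were least alike (0.32). Among the 13107 genes with a mean of at least 5 TPM, those most like SRF were TENT5B (0.96), MCL1 (0.95), NUAK2 (0.92), RIN2 (0.92) and IER2 (0.91), of which MCL1 and IER2 are on the list of immediate early targets. Most like the mean of ACTA2, TAGLN, CNN1 and MYL9 were SDC2 (0.94), FBN2 (0.93), SPARC (0.92), CNN2 (0.92) and TSPAN9 (0.92), of which CNN2 is on the list of contractile genes. With Quinpirole replicate 1 included, the gene most like SRF was MCL1 (0.98) and the gene most like the contractile mean was CNN2 (0.92). The pairs of SRF then changed, to 0.04 with MYADM, 0.88 with ACTB, 0.66 with ACTA2 and 0.38 with TAGLN, while ACTA2 and TAGLN had 0.90. Replicate 1 of 1 mM Acute 24 h and the 3 libraries of 1 µM that stood apart stayed in the means, and no r was computed without them.

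**Figure D5:**
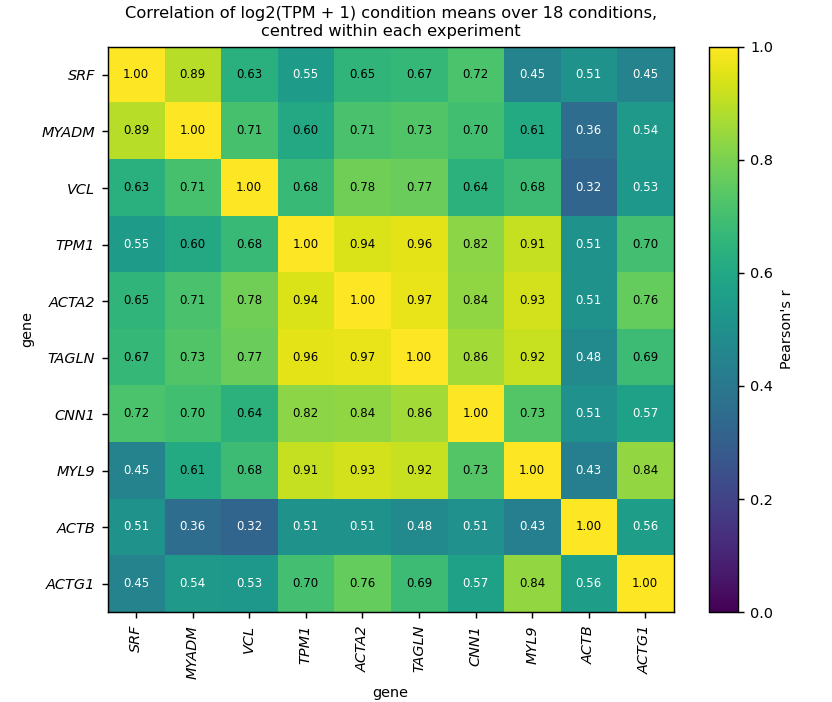
Pearson's r between the 10 genes over 18 condition means of log2(TPM + 1), centred within each experiment, without Quinpirole replicate 1. TPM1, ACTA2, TAGLN and MYL9 form a block with r of at least 0.91, and SRF pairs best with MYADM (0.89, but 0.04 with that library included).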

How the data were processed

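RNA-seq libraries of hMSN-like cells were analysed from the 53 per-library tables, which the authors made with CLC Genomics Workbench on hg38 with Ensembl gene models. The authors deposited raw read counts per gene (on exons, in introns, in total and uniquely mapped) and TPM, which scales exon reads by exon length and library total. Whether strand was used in counting is not given in the sources used here. A library of 5 Day was not analysed here. Sequencing was done at more than 1 provider, and which library went to which was not used here.

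Total exon reads were tested with the quasi-likelihood test of edgeR 4.0.16 (R 4.3.3) after filterByExpr (minimum count 10, minimum total count 15) and TMM normalization, in 1 fit per experiment, so that all its conditions share the estimate of spread. The 20 comparisons were each adjusted by Benjamini-Hochberg over all genes tested, with a threshold of 0.05. The difference between doses was fitted over both dopamine experiments. TPM is printed as a level and was not tested. DESeq2 1.42.0, its size factors, total and uniquely mapped gene reads, no filter on low counts, a replicate block, fits of only the groups compared, and fits without each replicate were alternatives. Intron reads and 2 fits without libraries that stood apart were added after the data had been seen. The count test was tested on simulated data. Likeness used Pearson's r of log2(TPM + 1), with a pseudocount of 1. The 10 genes were named in all conditions. Other genes named were, per list, up to 4 that passed with the largest change at 1 mM Acute 1 h, and, for likeness, the 5 highest r. MRTFA and MRTFB were named as the known coactivators of SRF and DES and MYH11 as muscle genes. The levels of EGR1 and TUBB3 by library were picked after their values were seen. The result of 1 further gene list is not reported here. The 10 genes and all lists were chosen with earlier results of these data known. Tables were made with Python 3.11.15, pandas 2.3.3 and numpy 2.4.6 and plots with matplotlib 3.10.9.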

Additional observations from a re-analysis of the deposited data

Results flagged for a closer look

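The response at Acute 1 h differed between 1 mM and 1 µM dopamine for 6 of the 10 genes, by the test of the difference itself (edgeR quasi-likelihood, adjusted over all genes), against 1.09% of all genes. The difference of log2(fold change), 1 mM minus 1 µM, was 4.04 for ACTA2, 3.73 for TAGLN, 3.58 for MYL9, 1.68 for TPM1, 1.34 for MYADM and 0.73 for VCL. Without the 3 libraries of 1 µM that stood apart it was 3.53, 3.58, 2.93, 1.83, 1.28 and 0.84 for the same genes. All 3 libraries of each gene were higher than PBS at 1 mM Acute 1 h. The doses were separate experiments, so that dose and experiment cannot be told apart.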

How the results depend on the processing

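Counts are of the 10 genes past the threshold, and the cause of each move was not tested. A percentage in brackets is the share of all genes tested that passed in the same fit, in either direction. With only the groups compared in the fit there were 0 at 1 mM Acute 24 h, 0 for 1 mM Chronic 24 h against Acute 24 h, 0 at 1 µM Chronic 1 h, 0 and 3 between regimens at 1 µM (1 h and 24 h), 1 at 2 Day, 6 at 4 Day and 4 for SKF82958. With intron reads there were 8 at 1 mM Acute 24 h (38%), 2 at 1 mM Chronic 1 h (2.54%), 2 at 1 µM Acute 1 h (12.8%), 1 at 1 µM Acute 24 h (2.85%), and 0 (0.0407%) and 1 (2.41%) between regimens at 1 µM. Among values called in at least 1 of the 2 fits, 3 changed sign there, CNN1 at 1 mM Acute 24 h (-1.60), CNN1 for 1 mM Chronic 24 h against Acute 24 h (1.45) and VCL at 1 µM Acute 1 h (0.63). With no filter on low counts there were 2 at 1 mM Chronic 1 h (0.846%), 4 at 2 Day (4.69%), 4 at 4 Day (4.96%) and 2 at 5 Day (2.96%). With total gene reads or uniquely mapped gene reads there were 8 for 1 mM Chronic 24 h against Acute 24 h (40% and 46.1%). At 1 µM both gave 1 at Acute 1 h (5.83% and 6.1%), 1 at Acute 24 h (2.13% and 2.3%) and 2 at Chronic 1 h (3.58% and 3.55%). Both also gave 1 for Chronic 24 h against Acute 24 h at 1 µM (2.96% and 3.11%), and total gene reads gave 0 for Chronic 1 h against Acute 1 h (1.3%). DESeq2 gave 1 at 1 µM Acute 24 h (7.26%), 2 for 1 µM Chronic 1 h against Acute 1 h (4.21%) and 1 at 2 Day (5.38%). Without the 3 libraries of 1 µM there were 2 at Acute 1 h (11.3%), 2 at Acute 24 h (11.4%), 3 at Chronic 1 h (7.2%) and 4 for Chronic 24 h against Acute 24 h (22.7%).

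Leaving out 1 library at a time gave 7 to 10 genes at 1 mM Acute 1 h (6.74% to 39.8% of all genes in either direction). It gave 3 to 7 at Acute 24 h (2.7% to 25.7%), with 3 without any single PBS library, 1 to 4 at Chronic 1 h (0.319% to 18.4%) and 0 to 1 at Chronic 24 h (0.00549% to 8.48%). Chronic against Acute had 5 to 9 at 1 h (4.49% to 34%) and 2 to 7 at 24 h (2.17% to 15.7%). At 1 µM leaving out 1 library gave 0 to 1 at Acute 1 h (3.09% to 6.52%), with 1 without replicate 2 or 3 of Acute 1 h. It was 0 to 1 at Chronic 1 h (0.859% to 1.6%) and 0 to 1 for Chronic 1 h against Acute 1 h (0.274% to 1.17%). Elsewhere it was 0 to 1 at 2 Day (0.729% to 3.06%), with 1 without replicate 3 of 2 Day, and 4 to 10 at 3 Day (2.21% to 10.2%). SKF82958 had 0 to 3 (0% to 0.624%), with 3 without Quinpirole replicate 1, and the dose difference at Acute 1 h had 5 to 6 (0.728% to 5.1%). Without either 5 Day library, the lone library was assumed to vary like the other groups.

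By the rule that every same-numbered pair correlates above 0.1, the numbers were not taken to pair the libraries. Same-numbered libraries had a mean correlation of 0.002, 0.023, -0.010 and -0.025 in the 1 mM, 1 µM, time course and agonist experiments, and 4 of 15, 8 of 15, 4 of 14 and 1 of 9 libraries correlated best with their own number. At 1 µM the correlations of same-numbered pairs ran from -0.301 to 0.446, a hint from the data that some libraries of 1 number vary together. With the replicate block there were 8 at 1 mM Acute 1 h (14.2% of all genes in either direction), 5 at Acute 24 h (11.1%), 3 at Chronic 1 h (1.45%), 10 at 3 Day (6.53%) and 6 for the dose difference at Acute 1 h (1.62%). The total of genes called moved more than that of the 10, from 2845 at 1 mM Acute 1 h to 7592 with only the groups compared and 12271 with total gene reads, and from 371 at 1 mM Chronic 1 h to 1035 by DESeq2 and 4340 with only the groups compared. Of 2958 single gene values under an alternative, 92 newly passed with the same sign, 135 no longer passed, and 3 called values changed sign. Another 2122 passed in neither fit, and 151 of these had the other sign. Low read counts limit ACTA2, CNN1 and MYL9 at 1 µM and all genes in Quinpirole replicate 1.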
